A study of Mus musculus with 4 samples.

Results

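Long H3K27me3 domains outside the Hox clusters were taken as runs of adjoining 4 kb tiles of the autosomes in which the H3K27me3 library exceeded the whole-cell extract (WCE). A tile passed with at least 15 H3K27me3 reads and with a depth-scaled H3K27me3 count at least 2 times the larger of its WCE count and 3. Runs of 3 or more passing tiles are the domains. They numbered 1578 of 12414 runs of any length and held 6684 of 19750 passing tiles, or 26.7 Mb and 1.18% of the 566243 autosomal tiles that held a read. Another 9 runs, with 79 tiles, touched the windows of the Hox clusters on chromosomes 6, 11, 15 and 2 and were left out whole, including 4 of their tiles that lay outside those windows.

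The cells were MDER 10T mouse fibroblasts carrying an estrogen-inducible MyoD1, the transcription factor that can turn fibroblasts towards muscle. They were grown in DMEM/F12 without phenol red and with 10% FCS, and the labels mention no treatment with estrogen. The promoter of the transgene and the number of clones are not given in the sources used here. Chromatin immunoprecipitation with Abcam antibodies gave 1 library each for H3K27me3, H3K4me3 and H3K9me3, and the WCE library was sequenced without immunoprecipitation. The 4 libraries come from the same labelled cells, with no genotype, dose or time that differs between them. Counting each signed position once, the autosomes gave 2933567 H3K27me3, 3086567 H3K4me3, 2101444 H3K9me3 and 2977697 WCE reads, or means of 5.18, 5.45, 3.71 and 5.26 reads per tile. With 1 library per group no spread between replicates exists, and each test on reads compares 2 libraries and not conditions. Intervals are exact 95% intervals. Those on read ratios give the counting error only, and PCR copies cannot be told from separate molecules here. Those on shares of tiles or domains take these as independent of each other. Neighbouring tiles share libraries and regional read density, so these intervals are a description.

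H3K27me3 is written by Polycomb repressive complex 2, whose catalytic subunit is EZH2 or EZH1 and whose EED subunit binds the mark and helps it spread along neighbouring nucleosomes. In differentiated cells it covers the clustered Hox genes and many other genes of developmental regulators that the cell type keeps silent. H3K4me3 marks the starts of active genes and is also found together with H3K27me3 at so-called bivalent promoters, and H3K9me3 is a mark of heterochromatin. Coordinates are those of the mm8 build and no annotation of that build was used here, so domains are named by position and no gene is assigned to them. For the same reason the fibroblast label was not checked against marker genes, and no sequence is shown.

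Most domains were short. Domains of exactly 3 tiles (12 kb) made up 785, or 49.7%, the median length was 16 kb, 447 had 5 or more tiles, and 47 had 10 or more. A single domain reached 136 kb and the next 84 kb. The H3K27me3 ratio to WCE, scaled to equal autosomal totals, had a median of 3.20 over domains, with 5% below 2.40, 5% above 5.42 and a highest value of 12.7. The members were chosen by these H3K27me3 and WCE reads, so the values are a description. The lowest ratio among domains of 3 tiles was 2.06 at chr2:25304001-25316000 (67 H3K27me3 and 33 WCE reads). Just outside the length limit, the run of 2 tiles with the highest ratio was chr7:48984001-48992000, with 41 H3K27me3 and 3 WCE reads (ratio 13.9). Short stretches with a high ratio are thus not among the members, but this ratio rests on few WCE reads.

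**Figure D1:**
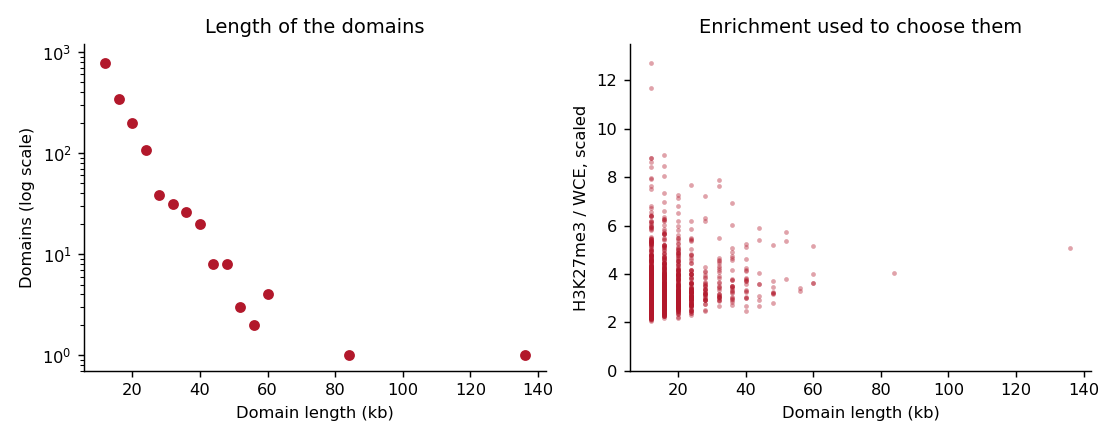
The left panel plots the number of domains (log axis) at each length in kb, and the right panel the scaled H3K27me3 to WCE ratio of each domain against its length. Lengths fall from 785 domains at 12 kb to single domains at 84 and 136 kb, and the highest ratio, 12.7, belongs to a short domain.

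Length and strength were only loosely related. Across the 1578 domains the number of tiles and the ratio had a Spearman correlation of 0.15, a description of values that both enter the rule. Pooled over domains of 3 tiles, H3K27me3 stood at 4.80 times its autosomal mean per tile, and over domains of 10 to 34 tiles at 6.69 times. The level of a library is expressed throughout as its reads per tile divided by its mean over all autosomal tiles with a read. WCE was at 1.47 and 1.71 in the same length classes. Among domains of 5 or more tiles, the tile with most H3K27me3 reads was not at an end in 353, or 79.0%. Most tiles of such domains are inner tiles, and the share was not compared with that of position alone.

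The longest domain, chr19:44768001-44904000 (136 kb, 34 tiles), held 1562 H3K27me3, 284 H3K4me3, 311 H3K9me3 and 312 WCE reads. Its H3K27me3 ratio was 5.08 (4.50 to 5.76). Reads were uneven along it, with a lowest tile of 17, a median of 32 and a highest of 147 H3K27me3 reads. High tiles formed a block from 44800001 to 44816000, with 118, 83, 122 and 147 reads. A separate tile at 44888001 held 147 H3K27me3 reads, 33 H3K4me3, 31 H3K9me3 and 18 WCE reads, so all 4 libraries were high there. No tile of this domain was called for H3K4me3 or H3K9me3 by the exact binomial test of H3K4me3 against H3K9me3 reads.

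The domain on chr17:79808001-79892000 (84 kb) was lower and more even. It held 578 H3K27me3, 133 H3K4me3, 144 H3K9me3 and 145 WCE reads (ratio 4.05, 3.37 to 4.89), and its tiles ran from 16 to 41 H3K27me3 reads around a median of 27. Just before its lower-coordinate edge, the tiles at 79800001 and 79804001 held 104 and 67 H3K4me3 reads beside 10 and 16 H3K27me3 reads. H3K4me3 was called above H3K9me3 in both, with Benjamini-Hochberg adjusted p-values from the exact binomial test of 8.92e-16 and 0.00111. A strong H3K4me3 region thus adjoined this domain without a tile between them.

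Of the 4 domains of 60 kb, chr8:125556001-125616000 was the densest, with 894 H3K27me3, 187 H3K4me3, 189 H3K9me3 and 227 WCE reads and tiles of 33 to 146 H3K27me3 reads. The tile with most H3K27me3, at 125560001, adjoined the tile with most H3K4me3 (39 reads), at 125564001. On chr11:97336001-97396000, with 810, 213, 140 and 159 reads in the same order, H3K27me3 showed several separate maxima between 23 and 84 reads per tile. Its H3K4me3 reads stood at 37 and 36 in the tiles at 97348001 and 97388001 and at 6 to 17 in the other tiles. The domain on chr11:77708001-77768000 was nearly level, at 25 to 48 H3K27me3 reads per tile, with 537, 93, 115 and 151 reads in all. On chr2:151720001-151780000, with 418, 107, 94 and 117 reads, the first tile held 43 H3K4me3 and 10 H3K9me3 reads and was called for H3K4me3 (exact binomial, adjusted p = 0.0382).

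**Figure D2:**
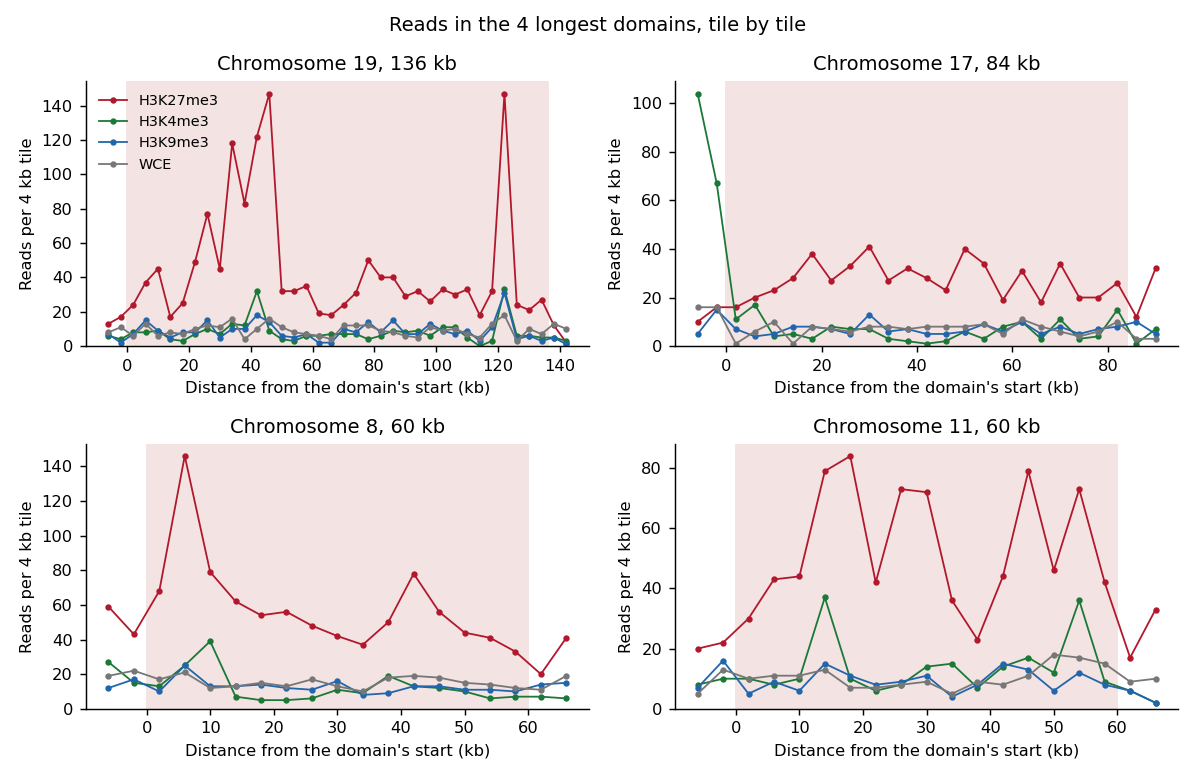
Reads per 4 kb tile in the 4 libraries are plotted against the distance in kb from the start of the 4 longest domains, which are shaded, with 2 tiles on either side. H3K27me3 reaches 147 reads in tiles of the 136 kb domain and stays at or below 41 in the 84 kb domain, where H3K4me3 stands at 104 and 67 reads just before the start.

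The other named long domains spanned 48 to 56 kb. On chr11:101896001-101952000 the tiles at 101900001 and 101904001 held 55 and 65 H3K4me3 reads beside 30 and 26 H3K27me3 reads, and both were called for H3K4me3 (exact binomial, adjusted p = 0.0113 and 0.000184). The domain on chr4:137000001-137056000 had the fewest H3K27me3 reads per kb of these, with 16 to 31 H3K27me3 reads per tile and a ratio of 3.28 (2.60 to 4.17). The highest ratio among them was 5.72 (4.76 to 6.92), on chr2:33420001-33472000, with 767 H3K27me3 and 136 WCE reads and 2 tiles of 99 H3K27me3 reads. On chr19:43632001-43684000 (728 H3K27me3, 138 WCE reads) the high tiles lay in the middle, with 119 reads at 43652001, and the ends held 18 and 20. The remaining 5, on chr17:45900001-45952000, chr14:62180001-62228000, chr2:118376001-118424000, chr19:6428001-6476000 and chr2:31132001-31180000, had ratios between 3.22 and 5.18. Of the 15 longest domains, taken by H3K27me3 reads per kb where lengths tied, 2 held a tile called for H3K4me3 and 2 a tile called for H3K9me3. Over all 19 domains of 12 or more tiles, with the other 4 of 48 kb included, the counts were 2 and 4. Of the tiles in domains of 10 to 34 tiles, 1.24% were called for H3K4me3 and 1.06% for H3K9me3. The shares over all tested autosomal tiles were 2.41% and 0.599%.

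Domains lay near each other. Of 1559 gaps between neighbours on the same chromosome, 153 were a single tile, 364 (23.3%) at most 20 kb and 708 (45.4%) at most 100 kb, while the median gap was 136 kb. In the single-tile gaps the tile missed the ratio alone in 88 cases, the read minimum alone in 21 and both in 44. Joining domains at most 20 kb apart gave 1214 groups, of which 251 held 2 or more domains and 615 domains in all. The widest group was chr19:44648001-44940000 (292 kb), which contains the longest domain and 4 others. Member tiles made up 87.7% of it, with 2506 H3K27me3, 516 H3K4me3, 578 H3K9me3 and 662 WCE reads. Next came chr15:78428001-78632000 and chr8:123580001-123784000, each 204 kb with 7 domains, and ratios of 2.72 (2.46 to 3.01) and 2.79 (2.54 to 3.07). In 14 of the 15 widest groups no tile, inside or between the domains, was called for H3K4me3. The called share was 2.41% over all tested autosomal tiles and 1.30% over member tiles.

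Whole stretches of the genome held none. No member tile lay in 1790 of 2360 megabases (75.8%), counted where at least 125 tiles held a read, and the 118 megabases with most member tiles held 52.6% of them. The fullest were chromosome 19 from 44000001 with 78 member tiles, chromosome 6 from 91000001 with 69, chromosome 8 from 123000001 with 61 and chromosome 15 from 78000001 with 58. Per 1000 tiles with a read, chromosome 19 had 31.3 member tiles, chromosome 11 28.6 and chromosome 2 21.6, against 2.23 on chromosome 16, 2.78 on chromosome 3 and 2.94 on chromosome 13. WCE density moved with this order, at 1960, 1648 and 1508 reads per Mb on the first 3 chromosomes and 1017, 972 and 1070 on the last 3. Over the 19 autosomes the Spearman correlation of the 2 measures was 0.86, and the same reads enter the rule, which needs 15 H3K27me3 reads in a tile. Megabases with member tiles had a median of 1854 WCE reads and those without 1017. The part of read density in where domains were found was not tested.

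H3K27me3 changed by a step at the domain edge but did not return to the autosomal mean nearby. In the last tile inside, it stood at 4.85 times the mean, and in the first tile outside at 2.74. From there it was 3.16 at 6 kb and still 2.68 at 46 kb from the edge, where other domains and short runs are included. WCE stood at 1.50 in the last tile inside, 1.83 in the first tile outside and 1.63 at 6 kb. The rule sets the step and the dip of H3K27me3 and the rise of WCE in the first outside tile, since that tile had to fail. Over tiles that did not pass, H3K27me3 was at 2.34 within 20 kb, 1.86 at 20 to 48 kb and 0.821 farther away, so the surroundings of the domains carried more H3K27me3 reads than the rest of the autosomes. WCE in the same classes was 1.75, 1.71 and 0.954.

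**Figure D3:**
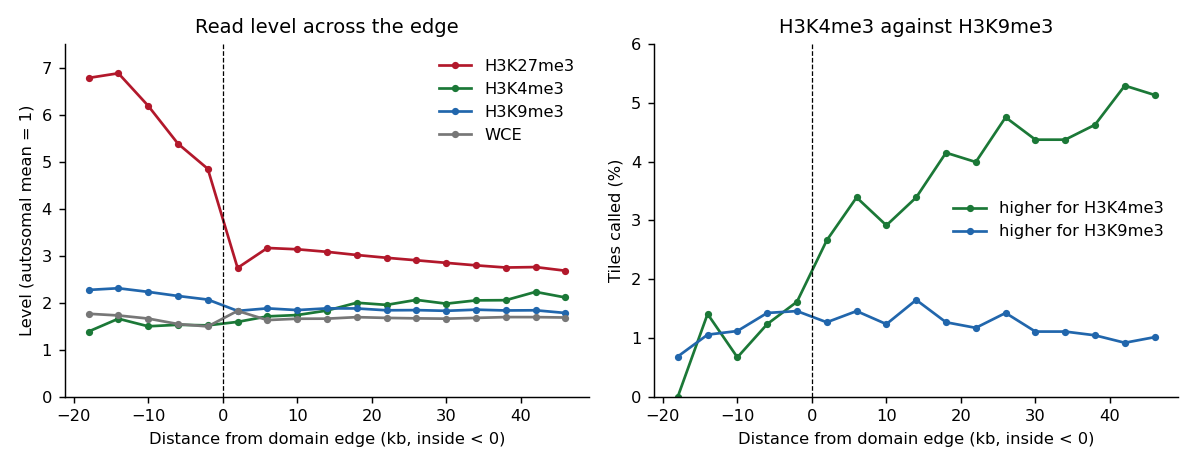
The left panel plots the mean level of each library (autosomal mean = 1) against the distance in kb from the domain edge, with negative distances inside, and the right panel the percentage of tiles called higher for H3K4me3 or H3K9me3. H3K27me3 steps from 4.85 inside to 2.74 outside, and the share called for H3K4me3 runs from 1.62% in the last inside tile to 5.13% at 46 kb.

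H3K4me3 and H3K9me3 were compared with each other, since neither library entered the rule. In each autosomal tile a two-sided exact binomial test set H3K4me3 reads against H3K9me3 reads, with the expected share from the autosomal totals. Calls required a scaled ratio of at least 2 and an adjusted p (Benjamini-Hochberg, over all tiles tested) under 0.05. Of the member tiles with a read of either, 87 of 6683 were called higher for H3K4me3, or 1.30% (1.04 to 1.60%), where the share over all 531858 tested tiles was 2.41%. Called higher for H3K9me3 were 95, or 1.42% (1.15 to 1.73%), against 0.599% of all tested tiles. This share was not particular to the domains. It was 1.35% (1.16 to 1.56%) in tiles of runs of 1 or 2. In non-passing tiles within 20 kb of a domain it was 1.18% (0.978 to 1.40%). Medians over all autosomal tiles with a read were 2 H3K4me3 and 3 H3K9me3 reads, against 6 and 7 in member tiles. The part of read number in these shares was not tested. The tile passing share of the rule itself was 3.49%. Scaling by the median ratio over 100 kb bins, which moves the H3K4me3 to H3K9me3 ratio of all tiles by 0.73 on the log2 scale, turned the calls in the domains into 332 for H3K4me3 and 6 for H3K9me3. Domains were then redrawn too, and their H3K4me3 share was 3.26% against 3.15% of all tiles. Their H3K9me3 share was 0.0589% against 0.0436%, so little of the H3K9me3 difference was left under that scaling.

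The place of the H3K4me3 share below that of all tiles did not hold under every setting, as the bin scaling shows. With each mark set against WCE in place of the other mark, 2.47% of member tiles were called for H3K4me3, and 2.48% of all tiles. When domains were drawn without WCE, against the larger of the autosomal mean per tile and 3, an alternative added with the data in view, 4.37% of member tiles were called for H3K4me3 against the same 2.41%. With WCE replaced by the larger of the tile and its mean over 40 kb, the share was 1.35%. For H3K9me3 the share in domains was above that of all tiles under each of these settings, at 0.120% against 0.0218% for H3K9me3 against WCE (8 tiles), 1.68% without WCE in the rule and 1.44% with the local mean, against 0.599%. The tests against WCE, one-sided for either mark, reuse the WCE counts that chose the members, so the rule favours calls in them. A tile rich in WCE reads fails the rule more easily. The part this plays in the shares of both marks was not tested beyond these values.

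Outside the domains, H3K4me3 calls were more frequent than inside. Tiles within 20 kb that did not pass were called for H3K4me3 in 4.51% (4.12 to 4.93%), tiles at 20 to 48 kb in 6.97% (6.51 to 7.45%), other tiles in 2.26%, and tiles of runs of 1 or 2 in 2.76% (2.49 to 3.06%). With domains drawn without WCE, domains and their 20 kb flanks had nearly the same share, 4.37% and 4.42%. The pooled H3K4me3 density of the domains was 0.771 (0.763 to 0.779) of that of the flanking tiles within 20 kb, where the WCE density was 0.889 (0.879 to 0.898). Without WCE in the rule the 2 ratios were 1.38 (1.37 to 1.39) and 1.33 (1.32 to 1.34), so the direction for H3K4me3 turned. Counted domain by domain, H3K4me3 density was above that of the flanks in 781 domains and below it in 784. In tiles called for neither mark, the H3K4me3 level was 1.37 in domains and 1.15 within 20 kb, with WCE at 1.54 and 1.67. The calls that left tiles out of this comparison use the same H3K4me3 reads, and they left out a larger share of the flanks.

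**Figure D4:**
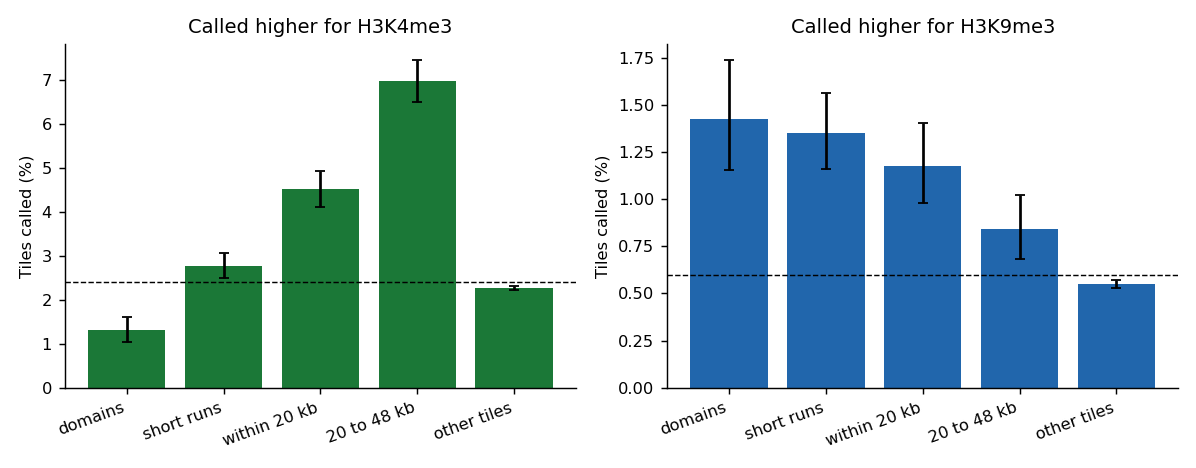
Bars give the percentage of 4 kb tiles called higher for H3K4me3 (left) or for H3K9me3 (right) in domains, short runs, non-passing tiles within 20 kb and at 20 to 48 kb, and other tiles, with exact 95% intervals, and the dashed line is the share over all tiles. For H3K4me3 the domains are lowest at 1.30% and the 20 to 48 kb tiles highest at 6.97%. For H3K9me3 the domains are at 1.42%, short runs at 1.35% and tiles within 20 kb at 1.18%, against 0.599% of all tiles. The H3K4me3 order of domains and all tiles turns when WCE is left out of the rule.

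Called H3K4me3 tiles occurred in 76 domains (4.82%, 3.81 to 5.99%), of which 10 held 2 or more and none more than 3. A domain has 3 or more tiles, so shares of domains are not on the scale of shares of tiles. Per tile, the share was 1.30% in the domains and 2.41% over all tested tiles. End tiles held 51 of the 87 and inner tiles 36, or 1.62% (1.21 to 2.12%) and 1.02% (0.716 to 1.41%) of their kind. The difference between the 2 kinds was not tested, and overlap of their intervals does not decide it. The share of domains with such a tile was 1.27% (0.412 to 2.93%) in the quartile with the lowest H3K27me3 level and 10.9% (7.99 to 14.4%) in the quartile with the highest. For H3K9me3 the share of domains with a called tile was also higher in the upper quartiles, at 3.80%, 4.31%, 7.11% and 7.59% from the lowest to the highest. The quartiles are drawn on H3K27me3 reads, which the rule used. The median WCE level rose across the same quartiles from 1.20 to 1.82, and its part in the difference was not tested. A domain with more tiles has more chances to hold a called tile. The pooled H3K27me3 level was 4.80 in domains of 3 tiles and 6.69 in those of 10 to 34. The part of tile number was not tested either. Over the 87 tiles H3K27me3 stood at 8.72 times its mean, against 5.32 in member tiles called for neither mark, and WCE at 2.45 against 1.54. The ratio of H3K27me3 to WCE was 3.56 (3.33 to 3.81) and 3.46 (3.42 to 3.49) in these 2 kinds of tile, values that the rule used and that are given as a description.

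The domain with most H3K4me3 reads per kb was chr14:20768001-20784000. Its 4 tiles held 52, 262, 112 and 56 H3K4me3 reads, 33, 56, 44 and 34 H3K27me3 reads, 18, 31, 16 and 14 H3K9me3 reads and 5, 22, 15 and 14 WCE reads. The last 3 were called for H3K4me3, with exact binomial adjusted p-values of 4.97e-27, 4.64e-10 and 0.0141. H3K27me3 and H3K4me3 were highest in the same tile there, and so were H3K9me3 and WCE. On chr3:131092001-131104000 the 3 tiles held 34, 52 and 40 H3K27me3 and 6, 34 and 104 H3K4me3 reads, with 5, 6 and 9 WCE reads, and the ratio of H3K27me3 to WCE was 6.39 (3.97 to 10.8). On chr8:73412001-73428000 the tile at 73420001 held 107 H3K27me3 and 160 H3K4me3 reads with 10 H3K9me3 and 17 WCE reads, the highest tile of both marks in that domain.

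Other H3K4me3-rich domains were arranged differently. On chr9:58352001-58364000 the H3K4me3 reads fell in the first tile (140, then 1 and 2), while H3K27me3 was level at 19, 19 and 15 reads. On chr9:35160001-35172000 they lay in the last tile (3, 3 and 135), with 17, 18 and 29 H3K27me3 reads. On chr6:72152001-72168000 the last 2 of 4 tiles held 90 and 123 H3K4me3 and 60 and 81 H3K27me3 reads. The domains on chr11:119356001-119368000 and chr19:42216001-42228000 each had 1 called tile, with 99 and 107 H3K4me3 reads and 113 and 28 H3K27me3 reads.

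At 500 bp resolution the read levels of all 4 libraries, WCE included, were highest in the same bin. The 76 domains with an H3K4me3-called tile were aligned on their 500 bp bin with most H3K4me3 reads. The choice and the alignment thus set the H3K4me3 maximum in advance. In the centre bins H3K4me3 was at 52.8 times its autosomal mean, H3K27me3 at 15.8, H3K9me3 at 6.30 and WCE at 4.40, from 2733, 776, 222 and 220 reads. At 1 to 3 kb the levels were 5.50, 6.45, 2.54 and 1.94, and at 8 to 12 kb 1.70, 3.73, 1.97 and 1.63. The H3K27me3 level within 500 bp of the centre was below that at 1 to 3 kb in 9 of the 76 domains, but the pooled WCE level was 3.76 within 500 bp and 1.94 at 1 to 3 kb. Divided by the WCE level, H3K27me3 was 3.58 in the centre bins alone, 3.16 within 500 bp, 3.32 at 1 to 3 kb and 2.28 at 8 to 12 kb. The values relative to WCE near the centre thus lay on both sides of that at 1 to 3 kb. H3K9me3 divided by WCE was 1.43, 1.26, 1.31 and 1.20 at the same distances. In the single bin at 1500 bp on the higher-coordinate side, H3K27me3 stood at 6.97, H3K9me3 at 3.01 and WCE at 1.78. Relative to WCE, both marks were higher in that bin than in the centre bins. From 1 to 3 kb to the centre bins, H3K27me3 and H3K9me3 thus rose with WCE in similar proportion. From 8 to 12 kb to the centre bins they rose more than WCE, from 2.28 to 3.58 and from 1.20 to 1.43 relative to it. The part of WCE in these rises was not tested. Pooled reads do not tell both marks on the same chromatin from marks in different cells or on different alleles, nor fewer marked cells from less mark per cell.

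**Figure D5:**
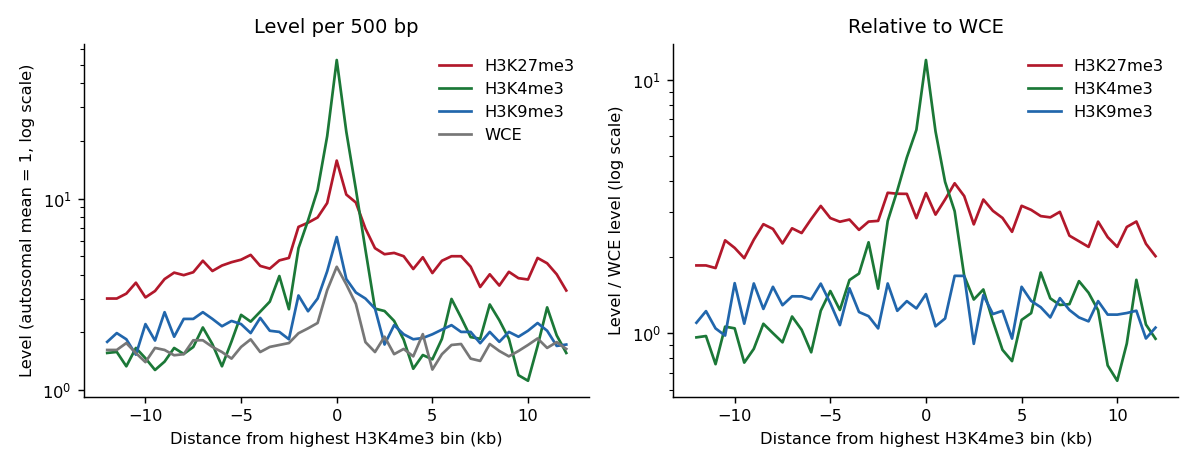
Levels per 500 bp bin (autosomal mean = 1, log axis, left) and levels divided by the WCE level (log axis, right) are plotted against the distance in kb from the bin with most H3K4me3 reads, averaged over 76 domains. H3K27me3 peaks at 15.8 times its mean in the centre bin, where the alignment sets the H3K4me3 maximum and WCE is also highest. Its value relative to WCE is 3.58 at the centre bin, 3.16 within 500 bp and 3.32 at 1 to 3 kb.

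At the other end, some domains held few H3K4me3 reads compared with the rest. In 496 domains (31.4%) the H3K4me3 level was below the autosomal mean, although 92.5% of domains were above the mean for WCE. No domain had 0 H3K4me3 reads. Over all autosomal tiles with a read the H3K4me3 mean was 5.45 reads and the median 2, so a domain under the mean can lie above most tiles. Among domains of 5 or more tiles, chr5:35804001-35824000 had the fewest per kb, with 13 H3K4me3, 41 H3K9me3, 113 H3K27me3 and 38 WCE reads. On chr9:43268001-43288000 the counts were 13, 21, 103 and 34 in the same order, and on chr9:43360001-43384000, on the same chromosome, 18, 36, 119 and 45. The domains on chr1:134448001-134468000 and chr4:136120001-136140000 each had 15 H3K4me3 reads and 23 H3K9me3 reads. The median tile of these 5 domains held 2 to 3 H3K4me3 reads, beside 2 over all autosomal tiles. H3K27me3 was modest in these 5 domains, with ratios of 2.68 to 3.54 and no tile above 33 reads.

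H3K9me3 reads were somewhat denser in the domains than around them. The level was 2.13 times the autosomal mean in member tiles, 1.78 in non-passing tiles within 20 kb, 1.71 at 20 to 48 kb and 0.931 farther away. The domain to 20 kb flank ratio was 1.20 (1.18 to 1.21), and H3K9me3 was above the flanks in 1035 domains and below in 527. For WCE the count was 461 above and 1097 below, which the rule favours. Without WCE in the rule the H3K9me3 flank ratio was 1.48 (1.46 to 1.49), beside the WCE ratio of 1.33. Over all member tiles H3K9me3 divided by WCE was 1.37 (1.36 to 1.39), and over tiles of runs of 1 or 2 it was 1.45 (1.44 to 1.47). These ratios share the WCE counts that chose the tiles.

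Tiles called higher for H3K9me3 occurred in 90 domains (5.70%, 4.61 to 6.96%). Per tile, the share was 1.42% in the domains and 0.599% over all tested tiles. Of the 90, 3 also held a tile called for H3K4me3, a number not compared with what the shares of the 2 kinds alone would give. In the 95 tiles the H3K9me3 level was 3.97 and the H3K4me3 level 0.585, against 2.09 and 1.37 in member tiles called for neither, values that the call itself selects. H3K27me3 there was at 5.72 and WCE at 1.66. The domain on chr15:85404001-85420000 had tiles of 127, 91, 17 and 25 H3K27me3 and 23, 24, 12 and 17 H3K9me3 reads. Its last 2 tiles, with 2 and 4 H3K4me3 reads, were called for H3K9me3 (exact binomial, adjusted p = 0.0258 and 0.0085). The other domains with most H3K9me3 per kb were also rich in other reads. On chr6:30124001-30136000 the first tile held 138 H3K27me3, 120 H3K4me3, 32 H3K9me3 and 13 WCE reads and was called for H3K4me3 (exact binomial, adjusted p = 2.73e-05). On chr10:126480001-126496000 the counts were 162, 92, 68 and 50 in that order, with no tile called for either mark. The domains on chr11:119356001-119368000 and chr14:20768001-20784000, named above for H3K4me3, had 93 and 79 H3K9me3 reads.

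Across domains, levels of the 4 libraries moved together. Spearman correlations over the 1578 domains were 0.53 between H3K27me3 and H3K4me3, 0.47 between H3K27me3 and H3K9me3 and 0.51 between H3K4me3 and H3K9me3. Those with WCE were 0.61, 0.50 and 0.54 for the 3 marks. The domains share libraries and regional read density, and H3K27me3 and WCE entered the rule, so these are descriptions. Within the domains, H3K4me3 was under the WCE level in 67.5% and H3K9me3 over it in 88.4%. For H3K4me3 this was not particular to the domains. Pooled H3K4me3 divided by WCE was 0.981 in member tiles and 0.971 in non-passing tiles beyond 48 kb. Non-passing tiles within 20 kb and at 20 to 48 kb were at 1.13 and 1.45. In tiles called for neither mark it was 0.891 in domains and 0.686 within 20 kb. These ratios share the WCE counts that chose the tiles.

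The Hox runs left out were stronger in the measure that chose them, at 10.4 times the H3K27me3 mean against 5.37 in the domains. Their 79 tiles had an H3K4me3 level of 2.29 and an H3K9me3 level of 2.64, against 1.52 and 2.13 in the domains, and 3 of them (3.80%, 0.790 to 10.7%) were called for H3K4me3. At this number of tiles a difference from the 1.30% of the domains was not detectable. Runs of 1 or 2 tiles had levels of 4.06 for H3K27me3, 1.60 for H3K4me3, 1.94 for H3K9me3 and 1.34 for WCE.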

How the data were processed

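Libraries were prepared from chromatin sonicated to a mean of 500 bp, with 18 cycles of PCR and bands of 150 to 350 bp, per the labels' protocols. The deposited files list signed read positions, aligned to mm8 by the authors with Bowtie (e 70, k 2, m 2, n 2, l 36), per the file headers. Reads with 1 position were collapsed to 1 per signed position, moved 60 bp along their strand and counted in 4 kb tiles. Runs touching the Hox windows of chromosomes 6 (52.05 to 52.25 Mb), 11 (95.96 to 96.22), 15 (102.7 to 102.9) and 2 (74.44 to 74.62) were left out. Members and lists were chosen with earlier results of these data known. Named domains are the 15 longest, the 8 richest and, among those of 5 or more tiles, the 5 poorest in H3K4me3 reads per kb, and the 5 richest in H3K9me3. The tile test was tested on simulated data. Alternatives changed repeats, shift, tiles, thresholds, scaling, control and contrast. Python 3.11.15, numpy 2.4.6, scipy 1.17.1, pandas 2.3.3 and matplotlib 3.10.9 were used.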

Additional observations from a re-analysis of the deposited data

Results flagged for a closer look

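Reads with 2 reported positions were not used to choose the domains, although they come from the same libraries. In the domains they numbered 2454 for H3K27me3 and 1078 for WCE, a ratio of 2.26 (2.10 to 2.43) after scaling to the autosomal totals of such reads, which drew attention because the signal lies outside the main measurement and above WCE. For H3K4me3 the ratio was 1.08 (0.986 to 1.17) and for H3K9me3 1.26 (1.16 to 1.37). Such a read counts at each of its positions, and which of them it came from cannot be told.

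The X chromosome, which the rule leaves out, held 1 run of 3 or more passing tiles, chrX:89536001-89552000, with 120 H3K27me3, 91 H3K4me3, 33 H3K9me3 and 22 WCE reads. Of 32124 tiles with a read there, 43 passed, where 19750 of 566243 autosomal tiles (3.49%) did. The rule needs 15 reads and scales by autosomal totals, and the part of X read density or copy number in this was not tested.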

How the results depend on the processing

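Domain number, covered length and calls followed the thresholds, and the cause was not tested for any change. With 2 kb tiles there were 488 domains over 7.862 Mb and levels of 1.592 and 2.227. There 29 tiles were called for H3K4me3, 0.738% of members against 1.63% of all tiles. For H3K9me3 18 were called, 0.458% against 0.136%. With 8 kb tiles 318 tiles were called for H3K9me3, 6.63% of members against 3.10% of all tiles. Keeping repeated reads gave 185 H3K9me3 calls, 2.47% against 1.07%, and levels of 1.455 and 2.031. A ratio of 3 left 454 domains over 6.756 Mb, an H3K4me3 level of 1.567 and 3.524% of domains with an H3K4me3 call. It left 19 H3K4me3 and 20 H3K9me3 calls, 1.125% and 1.184% of members against 2.41% and 0.599% of all tiles. A minimum of 10 reads gave 2851 domains over 47.96 Mb, 147 H3K9me3 calls (1.226% of members) and levels of 1.287 and 1.873. A minimum of 20 reads gave 837 domains over 13.95 Mb, 57 and 61 calls (1.635% and 1.749% of members) and levels of 1.768 and 2.376. Runs of 4 or more gave 793 domains over 17.32 Mb, 51 H3K4me3 calls (1.178% of members) and an H3K9me3 level of 2.181. For the read minimums and runs of 4 the shares of all tiles were likewise 2.41% and 0.599%. Scaling by 100 kb bins gave 40.76 Mb, 332 and 6 calls, 12.84% of domains with an H3K4me3 call and levels of 1.571 and 2.166. Without WCE in the rule there were 3161 domains over 66.26 Mb, 723 and 279 calls, 16.29% of domains with an H3K4me3 call and levels of 2.535 and 2.487. Each mark against WCE gave 165 and 8 calls and 8.872% of domains with an H3K4me3 call. The call shares for bin scaling, no WCE in the rule and each mark against WCE are given in the Results. An adjusted p under 0.01 gave 28 H3K9me3 calls, 0.419% of members against 0.178% of all tiles. A local WCE mean gave levels of 1.502 and 2.106, a shift of 100 bp an H3K4me3 level of 1.536, and a tile origin of 2 kb one of 1.508. The values in the report are 1578 domains, 26.74 Mb, 87 and 95 calls, 4.816% and levels of 1.523 and 2.132.

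No paired analysis was possible because each group has 1 library. With a median of 6 H3K4me3 and 7 H3K9me3 reads per member tile, moderate differences within a tile were not detectable, and a tile that was not called is not shown to be equal in both marks.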

Other observations

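In the domains 50.1% (49.8 to 50.3%) of H3K27me3 reads lay on the plus strand, and for the other libraries the share was between 49.9% and 50.1%. Repeated positions made up 5.88% of H3K27me3 reads in the domains and 6.85% over the autosomes, and 6.09% and 6.37% for WCE. The domains held 6.34% of the H3K27me3 reads of the autosomes, 1.80% of the H3K4me3, 2.52% of the H3K9me3 and 1.83% of the WCE reads. In domains of 3 tiles the tile with most H3K27me3 reads was the middle one in 303 of 785, or 38.6%. This share was not compared with that of position alone either.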
